A study of Homo sapiens with 24 samples.

Results

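The genes described here encode the vacuolar H+-ATPase (V-ATPase) and the lysosome, with the 2 transcription factors TFEB and TFE3. The members were fixed as a list of 37 gene symbols, and every row of the count matrix with such a symbol was taken, whatever its values. Of the 37 symbols, 36 matched 1 of the 18915 genes counted, and ATP6V0C was not analysed here. The list holds V0 and V1 subunits and 2 accessory proteins of the V-ATPase, lysosomal membrane proteins, cathepsins and other lysosomal proteases, and enzymes and cofactors that break down or move glycans and lipids.

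HepG2, an established human hepatoma cell line, was exposed for 10 h to vehicle (DMSO), to 50 nM ISRIB, to 20 µM nelfinavir, to 50 nM bortezomib, or to 50 nM bortezomib combined with 20 µM nelfinavir or with 50 nM ISRIB. Bortezomib inhibits the proteasome, nelfinavir is an HIV protease inhibitor that also activates the stress pathway through eIF2α and ATF4, and ISRIB reverses the translational effect of eIF2α phosphorylation. Each of the 6 groups was sequenced in 4 libraries, described by the submitters as biological replicates, so that 24 libraries of 1 cell line with a single dose and time per drug were compared. Reads came from the 3′ end of polyadenylated transcripts, and their number per gene therefore does not scale with transcript length.

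Lysosomes degrade proteins, lipids and glycans at an acid pH that the V-ATPase maintains. The membrane-embedded V0 sector of this pump carries protons, and the cytosolic V1 sector hydrolyses ATP. TFEB and TFE3 are related transcription factors of the MiT family that bind E-box elements in the promoters of many lysosomal genes, and their best known regulation is by phosphorylation and location in the cell, which counts of mRNA do not measure. Together with autophagy, lysosomes form the other main route of protein degradation beside the proteasome.

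Total counts ran from 5154533 to 6943164 per library, and the 36 members with a row took between 0.438% and 0.566% of them. Counts were scaled with trimmed mean of M-values (TMM) factors, and levels are given as CPM, counts relative to the library total after this scaling. The factors ranged from 1.187 to 1.24 in DMSO and from 0.8455 to 0.8694 in bortezomib, while mitochondrially encoded genes took 20% to 23.1% of the counts in DMSO and 32.8% to 35.5% in bortezomib. With library totals alone, without these factors, the log2 fold changes of all genes in bortezomib against DMSO shifted by a median of −0.50, and directions in this comparison are therefore given under both scalings. All 8 hepatocyte markers examined were expressed in every library, with ALB between 1560 and 3530 CPM and HNF4A between 46.8 and 168 CPM, whereas the fibroblast gene COL1A1 and the macrophage gene CD14 stayed at or below 1.11 and 2.32 CPM.

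Of the members, 28 had a promoter sequence in the RefSeq set used (build GRCh38.p14, 250 bases before to 50 bases after the start of the gene). A gene was counted where any of its promoter sequences held the motif, and 5 members had more than 1 such sequence. The E-box CACGTG, a palindrome that reads the same on both strands, was present for 9 of these 28 members (32.1%). The share was 8.77% of all 27305 genes with a promoter. Its extension TCACGTGA, the core of the CLEAR element (coordinated lysosomal expression and regulation) and also a palindrome, was present for 6 of 28 (21.4%). The share was 1.18% of all genes with a promoter, and each such match also counts as an E-box. The 8-base composite C/EBP-ATF element TGATGCAA, searched on both strands, was found for 0 of 28 members and for 1.08% of all genes with a promoter. A match is a description of the sequence and was not tested for binding. The CLEAR element was itself described in promoters of lysosomal genes, so its larger share among the members is not an independent result. PSAP, CTSB, ATP6V0E1, ATP6V1A, HEXA and LAMP2 were among the members without a promoter sequence. GLA, TPP1 and NPC1 had a promoter sequence but no E-box match.

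The windows below show 1 TCACGTGA match from each of the 6 genes, the one farthest upstream where there was more than 1. The windows have the motif in capitals and are read along the strand of the gene. They are given to show how closely the matches lie to the start of the gene, at positions −77 to −26 counted from the first base of the motif to the start.
ATP6V0D1 (chr16:67481200-67481227, minus strand, position −60): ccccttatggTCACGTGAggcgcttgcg
ATP6V1G1 (chr9:114587700-114587727, plus strand, position −59): cgctgtgcggTCACGTGAcaacgggggc
LAMP1 (chr13:113297200-113297227, plus strand, position −29): acccgcgggaTCACGTGAcgcccgggcg
MCOLN1 (chr19:7522572-7522599, plus strand, position −42): ccagaggcggTCACGTGAggggctctgg
GAA (chr17:80101494-80101521, plus strand, position −77): ggaggccgcgTCACGTGAcccaccgcgg
CTSA (chr20:45891299-45891326, plus strand, position −26): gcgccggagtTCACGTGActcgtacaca

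In DMSO, the levels of the members spanned from PSAP at 374 ± 20.1 CPM to MCOLN1 at 2.02 ± 0.814 CPM (mean ± SD, n = 4 libraries here and throughout). PSAP encodes prosaposin, the precursor of the saposins that assist sphingolipid breakdown, and MCOLN1 encodes a cation channel of the lysosomal membrane. CTSB followed PSAP at 315 ± 18 CPM, and LAMP1, CTSD and NEU1 at 267 ± 6.16, 265 ± 25.1 and 264 ± 9.47 CPM did not differ beyond their spread. Among the V-ATPase genes, the V1 stalk subunit ATP6V1G1 was the most counted at 155 ± 3.18 CPM and the V0 subunit ATP6V0A2 the least at 19.5 ± 1.17 CPM. TFE3 was at 15.4 ± 2.74 CPM and TFEB at 4.48 ± 1.22 CPM. CTSZ, which encodes a carboxypeptidase, had 2 counts in all 24 libraries, both in 1 bortezomib+nelfinavir library. It was below the expression filter, and its last 500 bases overlap NELFCD on the opposite strand, so the remaining 35 members were tested among 12685 genes. The last 500 bases of CTSA, NPC1, GLA, HEXA, ATP6V1F, MCOLN1, CTSD and TPP1 overlap another annotated gene, and ATP6V0A2 and ATP6V0B share 120 and 130 bases there with another gene, so that counts of these 10 members are uncertain to that extent.

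**Figure D1:**
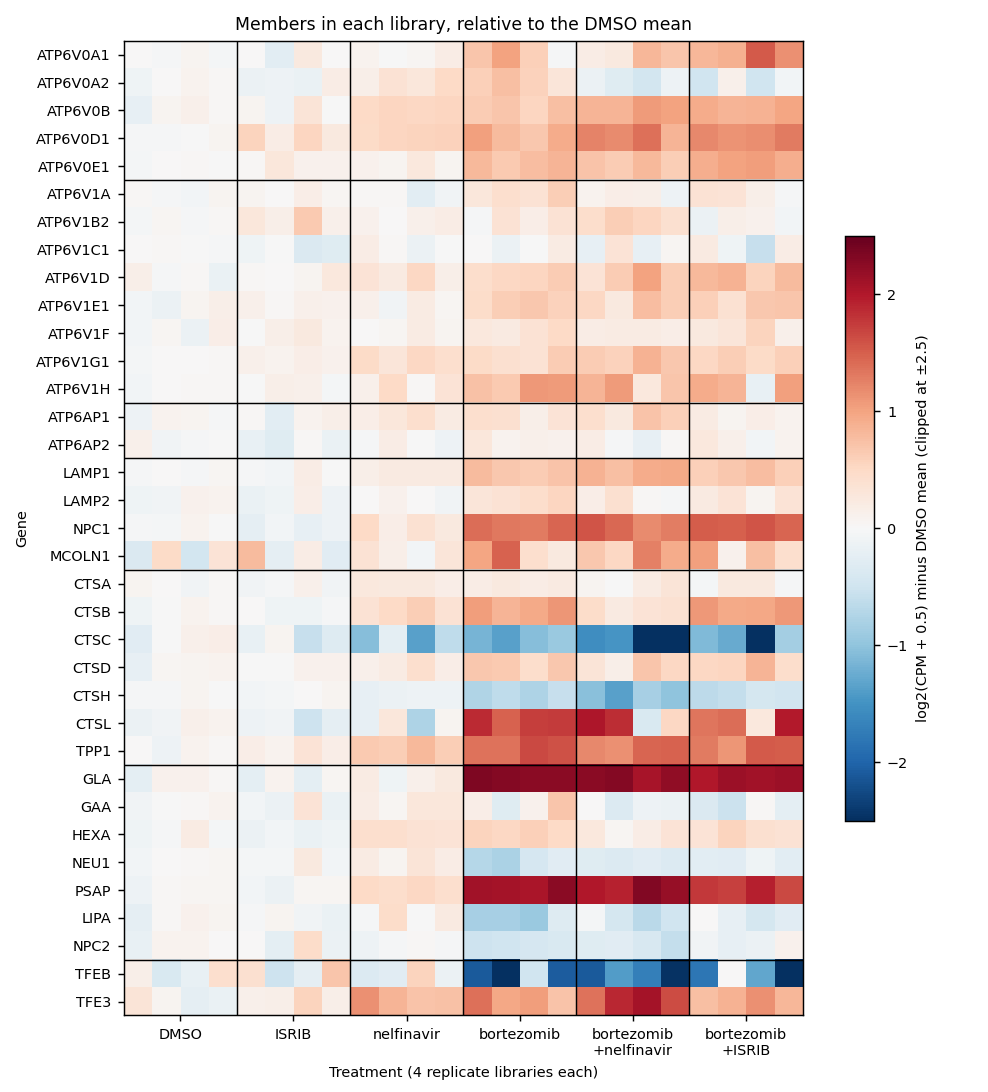
Each row is a tested member, grouped by role, and each column is 1 library, ordered by treatment. Colour is log2(CPM + 0.5) minus the mean of the 4 DMSO libraries, clipped at ±2.5. The bortezomib, bortezomib+nelfinavir and bortezomib+ISRIB libraries share high PSAP, GLA, NPC1 and TPP1 and low CTSC and CTSH, whereas the ISRIB libraries stay close to DMSO.

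The comparison of bortezomib with DMSO asks how the lysosomal genes behave when the proteasome is inhibited. Bortezomib raised the sphingolipid activator PSAP 4.36-fold, the α-galactosidase GLA 4.94-fold, the tripeptidyl peptidase TPP1 2.82-fold, the cholesterol exporter NPC1 2.60-fold and the protease CTSL 3.31-fold. It lowered CTSC, CTSH, NEU1, LIPA, NPC2 and the transcription factor TFEB. Of the 35 members, 25 were higher, 6 were lower and 4 were not called. A call means a Benjamini-Hochberg adjusted p below 0.05 in the quasi-likelihood test of edgeR, by which 27.6% of all tested genes were higher and 25.8% lower. More than 2-fold changes were found for 6 of the higher and 2 of the lower members. The share of all tested genes with such changes was not computed, so these counts have no background beside them. The median log2 fold change of the members was 0.54, against 0 over all genes. With library totals alone, 11 members were higher and 10 lower, beside 11.7% and 49.4% of all genes. In bulk samples of a fixed RNA input, fewer cells and less RNA per cell cannot be told apart, and these values are shares of the RNA and not amounts per cell.

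The V-ATPase genes were raised modestly with TMM factors, and the direction of some of them depended on the scaling. Of 15 tested V-ATPase genes, 12 were higher and 0 lower, beside 27.6% and 25.8% of all tested genes. Their median log2 fold change was 0.53, and none was above 2-fold. With library totals alone, 3 were higher (ATP6V0D1, ATP6V0E1 and ATP6V1H), 3 lower (ATP6V1B2, ATP6V1C1 and ATP6AP2) and 9 were not called, with a median of 0.03. Under that scaling 11.7% of all genes were higher and 49.4% lower, after a median shift of −0.50 over all genes. All 5 V0 genes were higher with TMM factors (log2 fold change 0.58 to 0.87), as were 6 of 8 V1 genes and 1 of 2 accessory genes. ATP6V0E1, a small membrane subunit, was at 135, 141, 143 and 139 CPM in DMSO and at 244, 220, 238 and 251 CPM in bortezomib. The groups did not overlap, and the log2 fold change was 0.77 (SE 0.0775, adjusted p = 3.49e-10 in edgeR's quasi-likelihood test), or 0.27 with library totals alone. ATP6V0D1, the subunit that links V0 to the central rotor, had a log2 fold change of 0.87 (SE 0.123) and ATP6V1H, a regulatory V1 subunit, 0.91 (SE 0.179). For ATP6V1A, the catalytic subunit, the value was 0.42 (SE 0.0949) with TMM factors and −0.08 with library totals alone. The directions of ATP6V1F, ATP6V1G1 and ATP6AP1 also turned between the scalings, and the calls of ATP6V1F, ATP6AP1 and ATP6V0A1 were lost on leaving out single bortezomib libraries (adjusted p up to 0.0698). ATP6V1B2, ATP6V1C1 and ATP6AP2 were not called with TMM factors, at 0.22, 0.02 and 0.15.

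PSAP (chr10:73576055-73611008, GRCh37, minus strand) was at 344, 381, 385 and 386 CPM in the DMSO libraries and at 1600, 1580, 1540 and 1790 CPM in bortezomib. The groups were far apart, and the log2 fold change of 2.12 (SE 0.0868) had an adjusted p of 5.51e-20 in edgeR's quasi-likelihood test. GLA (chrX:100648261-100663000, minus strand), which removes terminal galactose from glycolipids, was at 17.1, 21.7, 21.8 and 20.6 CPM in DMSO and at 104, 101, 98.4 and 97.9 CPM in bortezomib. Every bortezomib library exceeded every DMSO library, and the log2 fold change was 2.31 (SE 0.108, adjusted p = 1.67e-18 in edgeR's quasi-likelihood test). The differences were 1.63 for PSAP and 1.81 for GLA with library totals alone. Other genes of this class went the other way: the sialidase NEU1 (log2 fold change −0.54, SE 0.094), the acid lipase LIPA (−0.72, SE 0.14) and the cholesterol-binding NPC2 (−0.46, SE 0.109) were lower. HEXA, a subunit of β-hexosaminidase, was higher at 0.54 (SE 0.0955), a value that was 0.04 with library totals alone, and the α-glucosidase GAA was not called at 0.21 (SE 0.15). Of the 7 genes of glycan and lipid breakdown, 3 were thus higher and 3 lower, beside 27.6% and 25.8% of all tested genes. With library totals alone 2 were higher and 3 lower, beside 11.7% and 49.4% of all genes. With 7 genes, such counts are too small to set against these shares. 

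Of the 7 tested lysosomal proteases, 5 were higher and 2 lower, beside 27.6% and 25.8% of all tested genes. With library totals alone 3 were higher and 3 lower, beside 11.7% and 49.4% of all genes. TPP1 was at 87.7, 79.9, 93.4 and 90 CPM in DMSO and at 225, 226, 275 and 266 CPM in bortezomib, with no overlap. The log2 fold change was 1.5 (SE 0.101, adjusted p = 2.59e-14 in edgeR's quasi-likelihood test). The cysteine protease CTSB was at 292, 312, 335 and 320 CPM in DMSO and at 653, 570, 609 and 675 CPM in bortezomib, again without overlap (log2 fold change 0.99, SE 0.0784, adjusted p = 1.26e-12). CTSL, another cysteine protease (chr9:90338966-90346384, plus strand), described here after its values were seen, was at 22.4, 23.4, 27.3 and 26.6 CPM in DMSO and at 92, 70.4, 83.2 and 84.5 CPM in bortezomib (log2 fold change 1.73, SE 0.31). CTSD, an aspartic protease, was higher by 0.61 (SE 0.103), and the carboxypeptidase CTSA by 0.21 (SE 0.0823), which turned to −0.29 with library totals alone and whose call was lost on leaving out any of 7 of the 8 libraries (adjusted p up to 0.23). Lower were CTSH, an aminopeptidase, and CTSC, the dipeptidyl peptidase that activates serine proteases. CTSH was at 190, 191, 202 and 192 CPM in DMSO and at 115, 124, 113 and 129 CPM in bortezomib. The bortezomib libraries all lay below DMSO, and the log2 fold change was −0.69 (SE 0.0859, adjusted p = 3.35e-08 in edgeR's quasi-likelihood test) or −1.19 with library totals alone. CTSC fell from 97.6 ± 13.4 to 44.3 ± 5.48 CPM, a log2 fold change of −1.14 (SE 0.263).

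Among the membrane proteins, NPC1 (chr18:21086148-21166470, minus strand), which exports cholesterol together with NPC2, was at 39.3, 38.7, 42.8 and 40.2 CPM in DMSO and at 107, 101, 100 and 111 CPM in bortezomib. No library overlapped, and the log2 fold change was 1.38 (SE 0.0944, adjusted p = 3.83e-14 in edgeR's quasi-likelihood test). NPC1 thus rose while NPC2 fell, under both scalings (0.88 and −0.95 with library totals alone). The 3′ end of NPC1 overlaps RMC1 on the opposite strand, and whether the counting used strand is not stated. LAMP1, a major glycoprotein of the lysosomal membrane, was at 263, 270, 261 and 275 CPM in DMSO and at 463, 426, 417 and 439 CPM in bortezomib (log2 fold change 0.71, SE 0.0734, adjusted p = 7.40e-10; 0.21 with library totals alone). LAMP2 was higher by 0.41 (SE 0.0942), which was −0.08 with library totals alone. MCOLN1 was called higher at 0.95 (SE 0.38), but it had 9 to 22 counts per DMSO library and 11 to 32 per bortezomib library, the groups overlapped, and leaving out bortezomib replicate 2 brought the value to 0.57 (adjusted p = 0.257).

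TFE3 and TFEB moved in opposite directions. TFE3 (chrX:48886237-48900936, minus strand) was at 19.1, 15.9, 13 and 13.6 CPM in DMSO and at 40.4, 30.3, 31.9 and 25.3 CPM in bortezomib. The groups did not overlap, and TFE3 differed by 1.05 on the log2 scale (SE 0.168, adjusted p = 3.03e-06 in edgeR's quasi-likelihood test). TFEB (chr6:41651716-41703997, minus strand) was at 4.88, 3.25, 3.78 and 6.01 CPM in DMSO, from 25 to 49 counts per library, and at 0.642, 0.194, 2.96 and 0.648 CPM in bortezomib, from 1 to 14 counts. All bortezomib libraries lay below DMSO, and the log2 fold change was −2.01 (SE 0.572, adjusted p = 0.00348 in edgeR's quasi-likelihood test). The values were 0.55 for TFE3 and −2.51 for TFEB with library totals alone, so neither direction depended on the scaling. TFEB was also low, at 0.839 ± 0.429 CPM, in bortezomib+nelfinavir.

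**Figure D2:**
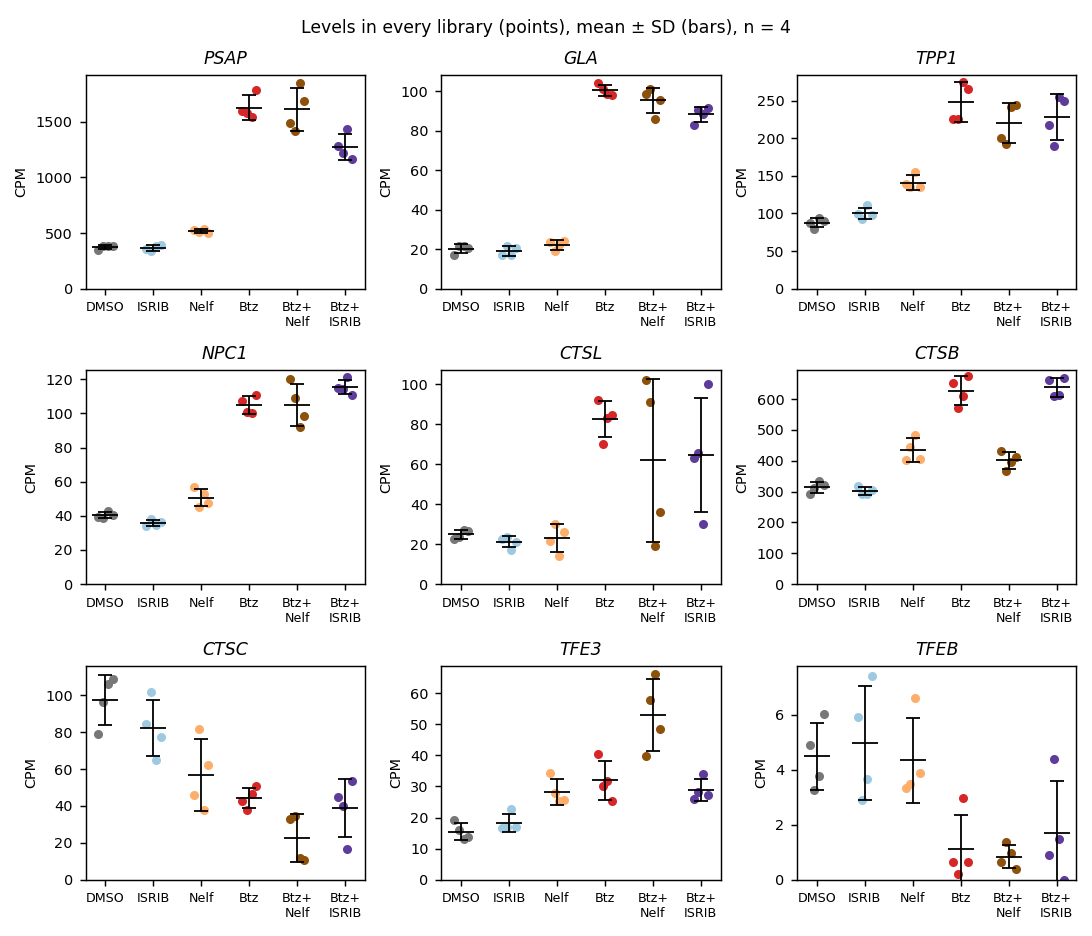
CPM in each of the 4 libraries per treatment (points) with mean ± SD (bars, cut at 0) for 9 members, each with its own linear axis from 0. PSAP, GLA, TPP1, NPC1 and CTSB are higher in all bortezomib libraries than in DMSO, CTSC and TFEB are lower, and CTSL spreads from 18.9 to 102 CPM within bortezomib+nelfinavir.

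**Figure D3:**
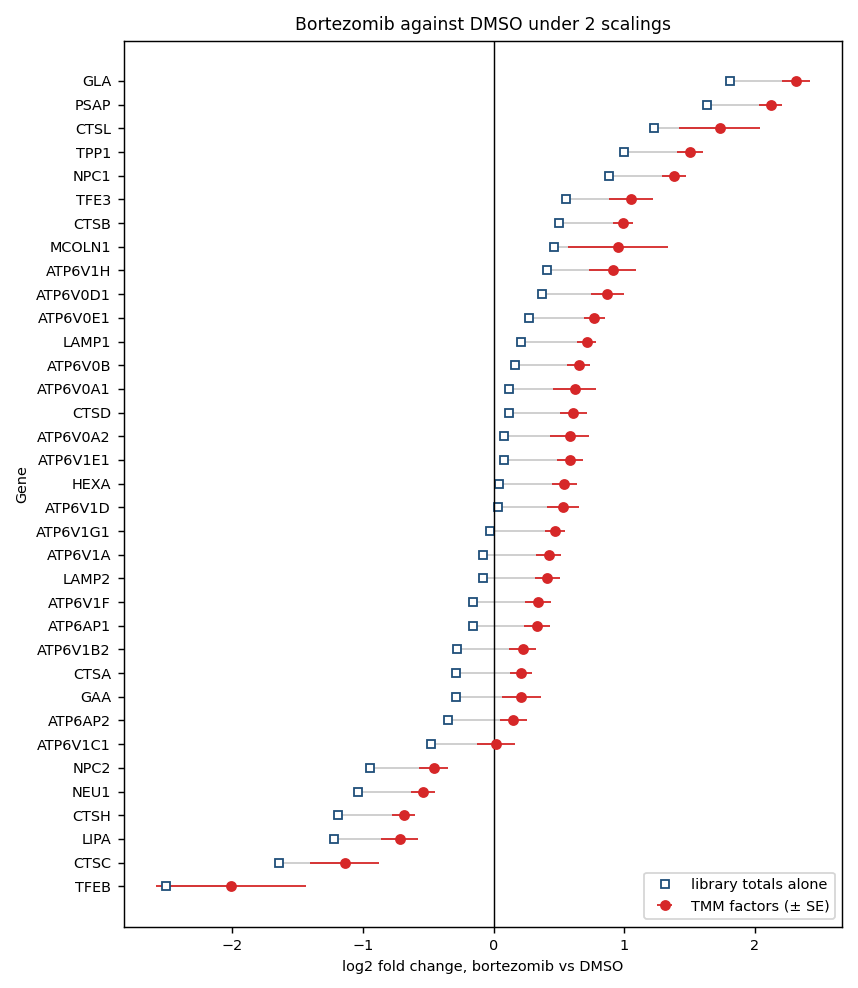
Log2 fold change of each tested member in bortezomib against DMSO with TMM factors (filled circles, ± SE) and with library totals alone (open squares). The whole set shifts to the left with library totals alone, and genes close to 0, most of them V-ATPase genes, change side while GLA, PSAP, CTSL, TPP1 and NPC1 stay to the right and CTSC and TFEB to the left.

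The comparison of nelfinavir with DMSO concerns a drug that activates ATF4, given here without bortezomib. Nelfinavir raised 11 members and lowered 1, CTSC, and 23 were not called, where 10.4% of all tested genes were higher and 8.84% lower. None changed more than 2-fold, and the median log2 fold change was 0.20, against 0.01 over all genes. The scaling shifted all genes by only −0.03 here, and 9 members were higher and 1 lower with library totals alone. TFE3 showed the greatest rise, at 34.4, 27.9, 25.2 and 25.7 CPM in nelfinavir, above all DMSO libraries (1.83-fold, log2 fold change 0.88, SE 0.165, adjusted p = 0.000158 in edgeR's quasi-likelihood test). TFEB was not called (−0.05, 95% interval −1.0 to 0.89).

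Nelfinavir libraries had TPP1 at 139, 135, 155 and 135 CPM, all above the DMSO range (log2 fold change 0.69, SE 0.0998, adjusted p = 3.36e-06 in edgeR's quasi-likelihood test). CTSB was at 404, 446, 484 and 406 CPM (0.47, SE 0.0778) and PSAP at 530, 509, 536 and 502 CPM (0.47, SE 0.0839), also without overlap with DMSO. HEXA was at 58.8, 59, 56.5 and 55.2 CPM, against 40.3 to 50.5 CPM in DMSO (0.39, SE 0.094). These 4 encode hydrolases or, for PSAP, a hydrolase activator. Of the V-ATPase genes 3 of 15 were higher, the proton-carrying subunit ATP6V0B at 145, 150, 147 and 149 CPM against 88.8 to 112 CPM in DMSO (0.52, SE 0.089), ATP6V1G1 at 214, 191, 221 and 208 CPM against 150 to 158 CPM (0.43, SE 0.0775) and ATP6V0D1 at 29, 30.2, 30.4 and 30.9 CPM against 20 to 21.7 CPM (0.55, SE 0.121). Each of the 3 was above its DMSO range in all nelfinavir libraries. NPC1 (0.33), LAMP1 (0.20) and CTSA (0.23) were the remaining higher members. The call of CTSA was lost on leaving out any single library of the 2 groups (adjusted p up to 0.144). That of LAMP1 was lost on leaving out any except nelfinavir replicate 1 (adjusted p up to 0.116), and that of NPC1 without nelfinavir replicate 1 (adjusted p = 0.0591). CTSC, whose nelfinavir libraries were at 45.8, 81.7, 37.6 and 62.2 CPM and overlapped DMSO, lost its call without nelfinavir replicate 1 or 3 or DMSO replicate 3 or 4.

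For ISRIB against DMSO, 0 of 35 members were called with edgeR or with DESeq2, and 0% of all tested genes were called in either direction. In edgeR, 2 members had an unadjusted p under 0.05, beside 703 of 12685 genes. These were ATP6V0D1, at 30.4, 23.4, 30.1 and 24.5 CPM (log2 fold change 0.40, 95% interval 0.14 to 0.65, adjusted p = 0.484), and ATP6V1B2 (0.32, 95% interval 0.10 to 0.54, adjusted p = 0.645). PSAP was at 367 ± 23.9 CPM and GLA at 19.1 ± 2.43 CPM in ISRIB, close to their DMSO levels. For GLA the 95% interval of the log2 fold change ran from −0.32 to 0.15.

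Adding nelfinavir to bortezomib raised 5 members and lowered 7 relative to bortezomib alone, and 23 were not called, where 15.6% of all tested genes were higher and 13.4% lower. The median log2 fold change was −0.07, against −0.02 over all genes. The numbers were 2 and 7 with library totals alone and 3 and 7 with mitochondrially encoded genes removed. None of TPP1, CTSB, HEXA, PSAP and CTSA, all higher with nelfinavir alone, was called higher here. CTSB was at 433, 367, 397 and 411 CPM, below all bortezomib libraries and above all DMSO libraries (log2 fold change −0.64, SE 0.0782, adjusted p = 1.35e-07 in edgeR's quasi-likelihood test). HEXA, at 52.8, 45.4, 49.7 and 55.7 CPM, was below its bortezomib range of 61.8 to 65.9 CPM (−0.32, SE 0.0968). CTSH, at 93.6, 75.8, 108 and 96.8 CPM, was below its bortezomib range of 113 to 129 CPM (−0.36, SE 0.0882). For PSAP the log2 fold change was −0.01 and for GLA −0.08 (95% interval −0.29 to 0.13).

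ATP6V0A2, a membrane subunit of the pump, was at 29.7, 33.2, 29.4 and 24 CPM in bortezomib and at 17.5, 15.7, 13.9 and 17.8 CPM with nelfinavir added. The groups did not overlap (log2 fold change −0.84, SE 0.154, adjusted p = 9.33e-05 in edgeR's quasi-likelihood test), and the levels were below the 17.9 to 20.7 CPM of DMSO. ATP6V1A was also lower, at 112, 118, 117 and 96.5 CPM against 129 to 161 CPM (−0.35, SE 0.0961), and LAMP2 was lower by 0.27 on the log2 scale with overlapping groups, a call lost on leaving out any of 6 of the 8 libraries (adjusted p up to 0.188). Higher were ATP6V0B, at 186, 186, 214 and 206 CPM against 150 to 172 CPM (0.29, SE 0.0892), ATP6V1G1 (0.22), ATP6V0D1 (0.32) and ATP6V1B2 (0.28). TFE3 rose again, to 39.7, 57.9, 66.2 and 48.4 CPM, of which 1 library lay within the bortezomib range (log2 fold change 0.73, SE 0.161, adjusted p = 0.000776 in edgeR's quasi-likelihood test). When bortezomib+nelfinavir replicate 3 was left out, 7 members were called in place of 12, and when only these 2 groups were fitted, 6 were. The calls of CTSB, ATP6V0A2, TFE3 and ATP6V0B held on leaving out any single library of the 2 groups, and each of the other 8 was lost at least once.

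CTSC and CTSL varied between libraries of 1 group. CTSC was at 32.8, 34.5, 12 and 10.5 CPM in bortezomib+nelfinavir (log2 fold change −1.0 against bortezomib, SE 0.29), and the call was lost without replicate 3 or replicate 4 (adjusted p = 0.0509 and 0.051). CTSL was at 102, 91.1, 18.9 and 36 CPM in the same libraries and was not called (−0.42, 95% interval −1.05 to 0.21). In bortezomib+ISRIB, CTSL was at 63.2, 65.8, 29.9 and 100 CPM and CTSC at 44.7, 40, 16.8 and 53.6 CPM. Replicates 3 and 4 of bortezomib+nelfinavir and replicate 3 of bortezomib+ISRIB were thus the lowest of their groups for both genes. The cation-independent mannose 6-phosphate receptor IGF2R, which sorts hydrolases to lysosomes and is no member, was also lowest in these libraries, at 143, 196 and 166 CPM. These groups also divided over all but sparsely counted genes, by the chi-square per degree of freedom between 2 replicates. In bortezomib+nelfinavir it was 4.133 for replicates 1 and 2, 7.711 for 3 and 4, and 14.06 to 21.8 otherwise. In bortezomib+ISRIB it was 3.357 for replicates 1 and 2 and 9.117 to 23.66 otherwise. Mitochondrially encoded genes took 24.9% to 29.6% of counts in bortezomib+nelfinavir and 32.6% to 40.2% in bortezomib+ISRIB. What set these libraries apart was not tested.

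The interaction with bortezomib, which subtracts the log2 change caused by nelfinavir in DMSO-treated cells from its log2 change in bortezomib-treated cells, was negative for 6 members and positive for 0 of 35, where 9.74% of all tested genes were called higher and 10.0% lower. The median of the members was −0.22, against −0.02 over all genes. Called were CTSB (−1.11, SE 0.11, adjusted p = 4.14e-09 in edgeR's quasi-likelihood test), ATP6V0A2 (−1.17, SE 0.211), TPP1 (−0.86, SE 0.14), HEXA (−0.71, SE 0.135), PSAP (−0.49, SE 0.118) and CTSD (−0.41, SE 0.145). CTSB thus rose with nelfinavir in the absence of bortezomib and fell in its presence. HEXA had the same signs, but its fall lost the call on leaving out any of 3 single libraries (adjusted p up to 0.104). TPP1 and PSAP rose in its absence and were not called in its presence, at −0.18 and −0.01. CTSD was called in neither of these comparisons, and its interaction lost the call on leaving out any of 12 single libraries (adjusted p up to 0.217). The interaction of TFE3 was −0.14 (95% interval −0.63 to 0.34).

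**Figure D4:**
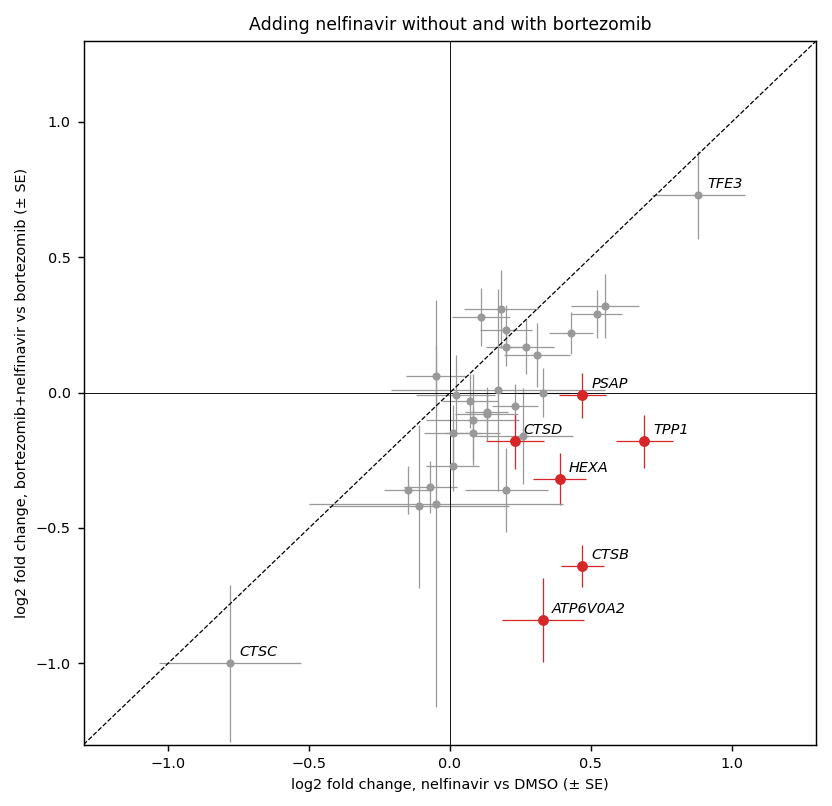
Log2 fold change on adding nelfinavir to DMSO-treated cells (horizontal axis) and to bortezomib-treated cells (vertical axis) for the 35 tested members, with SE as bars and the line of equal change dashed. The 6 members with an interaction called at an adjusted p under 0.05 are in red and all lie below the line, while TFE3 and CTSC lie close to it.

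Adding ISRIB to bortezomib raised 4 members and lowered 3, where 6.91% of all tested genes were higher and 5.34% lower. The median log2 fold change was −0.05, against 0.01 over all genes, and with library totals alone 2 were higher and 3 lower. PSAP was at 1280, 1220, 1440 and 1170 CPM, below all bortezomib libraries and above all DMSO libraries (log2 fold change −0.35, SE 0.0833, adjusted p = 0.00423 in edgeR's quasi-likelihood test). ATP6V0A2 was at 13.6, 21.4, 13.7 and 18.5 CPM, below its bortezomib range without overlap (−0.79, SE 0.155). GAA was at 29.2, 25.8, 38.7 and 31.8 CPM and overlapped bortezomib (−0.48, SE 0.157).

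The 4 members raised by the addition of ISRIB included 3 of the 5 lysosomal enzymes and cofactors that bortezomib had lowered. Both comparisons used the same 4 bortezomib libraries, so low values there enter both results. LIPA went from 32.9, 33, 30.8 and 46.7 CPM in bortezomib to 59.2, 51.3, 43.6 and 48.1 CPM (log2 fold change 0.50, SE 0.144), with overlap through bortezomib replicate 4. NPC2 went from 136, 137, 145 and 149 CPM to 183, 169, 176 and 210 CPM without overlap (0.38, SE 0.111), and NEU1 from 160, 151, 196 and 217 CPM to 219, 216, 246 and 220 CPM (0.32, SE 0.0948), where 1 bortezomib library reached the lower end of the other group. ATP6V0A1 went from 60.1, 75.2, 56.2 and 36.3 CPM to 66.3, 69.1, 108 and 82.2 CPM with overlap (0.51, SE 0.164). Between 3 and 6 members were called on leaving out single libraries, with 3 without bortezomib replicate 1 and 4 without bortezomib replicate 2 or bortezomib+ISRIB replicate 4, and 3 when only these 2 groups were fitted. The calls of ATP6V0A2 and PSAP did not depend on any single library of these groups, and each of the other 5 was lost at least once. TFEB was at 0.89, 4.4, 1.47 and 0 CPM and TFE3 at 26, 28.1, 34.1 and 27.4 CPM, and neither was called.

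The interaction of ISRIB with bortezomib was called for 2 of 35 members, ATP6V1B2 (−0.52, SE 0.15, adjusted p = 0.0361 in edgeR's quasi-likelihood test) and ATP6V0A2 (−0.73, SE 0.213), both negative, where 2.93% of all tested genes were called higher and 1.89% lower. ATP6V1B2, a nucleotide-binding V1 subunit, was at 77.9, 83.3, 78.7 and 81.7 CPM in DMSO, 98.3, 89.1, 127 and 87.3 CPM in ISRIB, 79.1, 103, 90 and 104 CPM in bortezomib and 72.6, 89, 87.2 and 76.8 CPM in bortezomib+ISRIB. It was above DMSO in every ISRIB library and overlapped bortezomib in the combination. On leaving out single libraries, between 0 and 2 members were called, with 0 without DMSO replicate 1, 3 or 4, ISRIB replicate 1, bortezomib replicate 2 or bortezomib+ISRIB replicate 1. Without ISRIB replicate 3, the library at 127 CPM, ATP6V1B2 was at −0.39 and lost its call (adjusted p = 0.107 in edgeR's quasi-likelihood test). Of the 2 members called without that library, 1 was higher. ATP6V0A2 lost its call without ISRIB replicate 4 (adjusted p = 0.103 in the same test), among others. The calls therefore rest on single libraries.

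Beyond the members, 98 of 109 further genes of the V-ATPase, the lysosomal lumen and membrane and the mTORC1 machinery on the lysosome were tested. With bortezomib, 33 of 98 were higher and 27 lower, beside 27.6% and 25.8% of all tested genes, with a median log2 fold change of 0.15. The scaling by library totals alone gave 12 and 50 of 98, beside 11.7% and 49.4% of all genes, so these shares were near the background. More than 2-fold changes were found for 10 of the higher and 11 of the lower genes, and the share of all tested genes with such changes was not computed. Of the 16 other V-ATPase subunit and assembly genes tested, 6 were higher, 2 of them more than 2-fold. Another 4 of the 16 were lower, 1 of them more than 2-fold, and the log2 fold changes of all 16 ran from −1.58 to 6. The hydrolase receptor SCARB2 rose from 40.8 ± 2.72 to 71.6 ± 8.98 CPM and IGF2R from 130 ± 4.25 to 315 ± 14.6 CPM. Lower were the alternative V0 subunit ATP6V0E2, from 323 ± 25.7 to 108 ± 12.4 CPM (log2 fold change −1.58, SE 0.0955), the ganglioside activator GM2A (−2.11, SE 0.182), the Rag GTPase RRAGD (−1.5, SE 0.152), the iron transporter SLC11A2 (−0.80) and LAMTOR4 (−1.36). ATP6V0E1 and ATP6V0E2, which encode alternative forms of the same subunit, thus went in opposite directions, with ATP6V0E1 higher under both scalings.

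With nelfinavir, 15 of the 98 were higher and 3 lower (10 and 4 with library totals alone), beside 10.4% and 8.84% of all tested genes, with a median of 0.05. The Rag GTPase RRAGC had the smallest p, at 89.9 ± 6.54 CPM against 52.7 ± 4.18 CPM in DMSO (log2 fold change 0.77, SE 0.0938), followed by the nuclease DNASE2 (0.75), the chloride/proton exchanger CLCN7 (0.81), NCOA7 (0.75) and the Rag regulator FLCN (0.71). GNPTAB (−0.65), SLC11A2 (−0.36) and GM2A (−0.59) were lower. With ISRIB alone 0 of 98 were called with edgeR or DESeq2, and 3 had an unadjusted p under 0.05 in edgeR. Adding nelfinavir to bortezomib raised 10 and lowered 19 of the 98, beside 15.6% and 13.4% of all tested genes. The smallest p among them belonged to LAPTM4A (0.55) for the higher genes and to TMEM192 (−0.81) for the lower, a lysosomal membrane protein that fell from 56.8 ± 4.45 to 32.5 ± 3.36 CPM. RRAGC (0.60) and RRAGD (0.98) were among those higher. The interaction of nelfinavir with bortezomib was positive for 6 and negative for 18 of the 98, beside 9.74% and 10.0% of all tested genes.

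Adding ISRIB to bortezomib raised 6 and lowered 5 of the 98, shares near the 6.91% and 5.34% of all tested genes. The numbers were 3 and 5 with library totals alone, 7 in all without bortezomib+ISRIB replicate 4, and 1 in all when only these 2 groups were fitted. SLC17A5, a sialic acid exporter, was higher (log2 fold change 0.88, SE 0.188), as were SLC11A2 (0.42), GM2A (0.78), LAPTM4A (0.24) and RRAGD (0.48), and WDR7 (−1.29), AGA (−0.59), TMEM192 (−0.44), NCOA7 (−0.47) and MANBA (−0.48) were lower. The interaction of ISRIB with bortezomib was positive for 4 of the 98, RRAGD, GNPTAB, SLC11A2 and GM2A, and negative for 0, beside 2.93% and 1.89% of all tested genes, though 1 was called without DMSO replicate 1 and 7 without bortezomib+ISRIB replicate 3. All 4 were lower in bortezomib than in DMSO, but the interaction is computed in part from the same libraries, so these observations are not independent. GM2A, for example, was at 39.2 ± 1.85 CPM in DMSO, 9.04 ± 1.7 CPM in bortezomib and 15.4 ± 4.16 CPM in bortezomib+ISRIB.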

How the data were processed

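QuantSeq FWD libraries of transcript 3′ ends, 24 in all, were prepared from a fixed input of total RNA. Per the submitters' processing notes and the study's methods, reads were trimmed with cutadapt 2.8 and aligned to hg19 with STAR. The deposited values are raw read counts per gene, not normalized by the authors, and how strand was treated is not given in the sources used here. Even the closest pair of replicates still differed beyond sampling noise (chi-square 2.189 per degree of freedom). A filter on low counts (filterByExpr, minimum count 5 and minimum total 25) and TMM scaling preceded the test in edgeR 4.0.16 under R 4.3.3, with 1 quasi-likelihood model of all 24 libraries and Benjamini-Hochberg adjustment over 12685 genes in each of 7 comparisons. Errors beside log2 fold changes are SE. The study's methods used DESeq2, which was run here (version 1.42.0) as an alternative. The other alternatives were RLE factors, library totals alone, removal of mitochondrially encoded genes, no filter or the default filter, fits restricted to the groups compared, a replicate block, and each library left out.

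The members and the further lists were chosen with earlier results of these data known. Values in every library are given for up to 8 members with the smallest p in each comparison with DMSO or bortezomib and for TFEB and TFE3, and further genes for up to 5 per direction. The test was checked on simulated counts. Gene positions are from GENCODE v44lift37 on GRCh37, and promoters from RefSeq. Last 500 bases of transcripts were aligned with BLAST 2.17.0.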

Additional observations from a re-analysis of the deposited data

Results flagged for a closer look

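In 16 of 210 groups of 4 libraries, 1 library stood apart from the other 3 for a member by Dixon's test, where chance gives about 1 in 20 groups. Of these 16 cases, 10 concern a library with the replicate number 3. In DMSO, replicate 1 was low for PSAP (344 CPM, others 381 to 386), CTSD (228 CPM, others 275 to 282) and ATP6V1H (20.3 CPM, others 21.7 to 22), and replicate 3 was high for CTSH (202 CPM, others 190 to 192). In ISRIB, replicate 3 was high for NEU1 (314 CPM, others 250 to 255), LAMP2 (186 CPM, others 147 to 153), GAA (48.2 CPM, others 33.9 to 35.9) and TFE3 (22.7 CPM, others 16.6 to 17), and replicate 4 for ATP6V0A2 (22.2 CPM, others 17.2 to 17.7). In nelfinavir, replicate 1 was low for LAMP1 (294 CPM, others 312 to 314) and replicate 3 high for TPP1 (155 CPM, others 135 to 139) and TFEB (6.62 CPM, others 3.34 to 3.89). In bortezomib, replicate 3 was low for CTSD (359 CPM, others 417 to 423) and high for TFEB (2.96 CPM, others 0.194 to 0.648), and replicate 4 was high for LIPA (46.7 CPM, others 30.8 to 33). In bortezomib+ISRIB, replicate 3 was high for NEU1 (246 CPM, others 216 to 220).

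The effect of a drug differed between cells with and without bortezomib in 8 cases, each by the interaction term of the model (edgeR's quasi-likelihood test, adjusted p under 0.05). For nelfinavir the differences on the log2 scale were −1.17 for ATP6V0A2, −1.11 for CTSB, −0.86 for TPP1, −0.71 for HEXA, −0.49 for PSAP and −0.41 for CTSD. For ISRIB they were −0.73 for ATP6V0A2 and −0.52 for ATP6V1B2. The cause of these differences was not tested.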

How the results depend on the processing

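With library totals alone, 6 members that were higher in bortezomib than in DMSO turned to negative log2 fold changes, ATP6V1A (−0.08), ATP6V1F (−0.16), ATP6V1G1 (−0.03), ATP6AP1 (−0.16), LAMP2 (−0.08) and CTSA (−0.29, adjusted p = 0.00611). Of the 70 member log2 fold changes called in the 7 comparisons, 49 kept their direction and call with library totals alone, 66 with RLE factors, 65 without mitochondrially encoded genes, 59 without a filter, 70 with the default filter, 67 with DESeq2, 58 with only the groups compared and 45 when any single library was left out. With only the groups compared, 6 members were called for bortezomib+nelfinavir and 3 for bortezomib+ISRIB against bortezomib, and without a filter 1 for the interaction of ISRIB. Leaving out single libraries gave 27 to 30 called members for bortezomib, 9 to 11 for nelfinavir, 0 for ISRIB, 7 to 13 for bortezomib+nelfinavir, 3 to 6 for bortezomib+ISRIB, 5 to 6 for the interaction of nelfinavir and 0 to 2 for that of ISRIB. With a replicate block these numbers were 31, 13, 0, 13, 7, 7 and 2. The labels do not say that replicate numbers mark shared cultures, and the main model held no term for replicate number. After removal of group means, r exceeded 0.1 in 10 of 60 same-numbered pairs and 7 of 180 others. The share was larger among same-numbered pairs, and its source was not tested. Adding the replicate block kept the direction and call of all 70 member log2 fold changes. Among the 98 further genes, 1 was called for ISRIB and 1 for bortezomib+ISRIB with only the groups compared, and 8 for the interaction of ISRIB with DESeq2. TFEB and MCOLN1 rest on few counts. The cause of each of these dependences was not tested.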
